A study of Mus musculus with 23 samples.

Results

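The Clca genes encode the calcium-activated chloride channel regulators, a family of secreted or membrane-bound proteins named for an effect on chloride currents. The 7 protein-coding members, *Clca1*, *Clca2*, *Clca3a1*, *Clca3a2*, *Clca3b*, *Clca4a* and *Clca4b*, were taken by gene symbol from a table of 55450 genes, of which 28612 had a count in at least 1 of 23 libraries. All 7 had counts. An eighth symbol, the pseudogene *Clca4c-ps*, stayed outside the family and is given only where it shares sequence with a member. Members were matched by symbol, but the family itself was selected on its expression in these same libraries, in an earlier analysis whose deciding comparison is not recorded. The values and adjusted p below therefore describe where each gene stood in a fit over the whole table and are not independent evidence.

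RNA was sequenced from colon of male Cdx2Apcf/w mice on the C57BL/6 strain, aged 6 to 8 weeks at the start and fed a high-fat diet (60% HFD), in which a *Cdx2*-driven Cre removes 1 copy of the tumor suppressor *Apc* in intestinal epithelium. Mice of every group received antibiotics in the drinking water and were then colonized with *Bacteroides fragilis* 638R, either a control strain with an empty vector and low bile salt hydrolase activity (BF638R bsh-, here BSHlow), or the strain carrying the bsh gene of *B. fragilis* NCTC9343 (BF638R bsh+, here BSHhigh). There were 4 BSHlow and 4 BSHhigh libraries of normal colon after 2 weeks, 4 and 4 of non-tumor colon after 12 weeks, 4 of BSHlow tumors and 3 of BSHhigh tumors after 12 weeks. No group was left uncolonized, free of HFD or wild type for *Apc*. The 3 BSHhigh tumor columns carried the names of BSHlow tumors in the table header and were known by group only, so they are called a, b and c. No label tied libraries to animals, so p-values measure the spread between libraries, which may be partly technical. Libraries held 12401388 to 17903008 expected counts. The tumor label was met by WNT target genes, of which 10 of 10 were called higher in BSHlow tumors and 9 of 10 in BSHhigh tumors.

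CLCA proteins are not channels themselves. They carry a metalloprotease domain with which they cut themselves, and human CLCA1 acts on the calcium-activated chloride channel TMEM16A, the product of *Ano1*. In the gut, *Clca1* is a product of goblet cells and one of the abundant proteins of the mucus layer, and *Clca4a* (formerly Clca6) is known from enterocytes. *Clca2* (formerly Clca5) is known from stratified squamous epithelium, *Clca3a1* from lymphatic endothelium and other stroma, and *Clca3a2* from mammary gland. Names in this family have moved between genes: the RefSeq synonyms of *Clca1* include Clca2 and Clca3, and those of *Clca3b* include Clca4.

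The 7 members lay in tandem on the minus strand of chromosome 3 (GRCm38, GENCODE M21). *Clca3a1* was at chr3:144729677-144760977, *Clca3a2* at chr3:144796559-144819494, *Clca3b* at chr3:144822623-144849357, *Clca4b* at chr3:144910921-144932529, *Clca4a* at chr3:144952480-144975045, *Clca1* at chr3:145003817-145032776 and *Clca2* at chr3:145070263-145099443. The longest transcript of each had 14 exons. Coding sequences of *Clca3a1* and *Clca3a2* were 97.1% identical and those of *Clca4a* and *Clca4b* 96.0%. *Clca3b* was 75.2% identical to *Clca3a2*, and *Clca1* was at most 62.5% identical to any other member.

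That likeness bears on how reads are shared out between the genes, so the stretches of 150 coding bases in which the close pairs differ most are shown, with the differing bases in capitals. *Clca4a* and *Clca4b* differed most in exon 14, at chr3:144952682-144952831 and chr3:144911117-144911266, both on the minus strand, with 16 differing bases:
Clca4a: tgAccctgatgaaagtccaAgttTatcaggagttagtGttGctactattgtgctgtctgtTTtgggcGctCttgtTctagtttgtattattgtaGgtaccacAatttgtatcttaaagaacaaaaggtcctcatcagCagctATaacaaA
Clca4b: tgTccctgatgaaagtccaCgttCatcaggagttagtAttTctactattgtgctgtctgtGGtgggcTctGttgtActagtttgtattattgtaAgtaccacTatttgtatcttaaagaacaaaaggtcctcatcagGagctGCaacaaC
At the other extreme the pair shared an identical coding run of 168 bases across exons 8 and 9. A stretch of 150 of these bases lies in *Clca4a* between chr3:144960662 and 144961930 and in *Clca4b* between chr3:144919301 and 144921930, with the intron left out, and a read from it fits both genes:
Clca4a and Clca4b: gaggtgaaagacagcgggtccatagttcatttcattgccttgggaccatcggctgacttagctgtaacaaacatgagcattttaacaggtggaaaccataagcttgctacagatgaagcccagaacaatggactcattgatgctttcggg
*Clca3a1* and *Clca3a2* differed most where exon 4 meets exon 5, within chr3:144755271-144758046 and chr3:144813994-144816790, with 15 differing bases:
Clca3a1: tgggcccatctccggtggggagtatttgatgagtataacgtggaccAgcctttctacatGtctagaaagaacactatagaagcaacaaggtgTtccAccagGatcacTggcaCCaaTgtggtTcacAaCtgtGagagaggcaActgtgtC
Clca3a2: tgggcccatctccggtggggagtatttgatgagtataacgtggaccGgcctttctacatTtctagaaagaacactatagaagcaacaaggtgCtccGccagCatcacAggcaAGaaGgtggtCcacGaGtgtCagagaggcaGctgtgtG
*Clca3a2* and *Clca3b* were alike only in places, and the first 150 coding bases, in exon 1 at chr3:144819320-144819469 and chr3:144849136-144849285, held only 2 differing bases:
Clca3a2: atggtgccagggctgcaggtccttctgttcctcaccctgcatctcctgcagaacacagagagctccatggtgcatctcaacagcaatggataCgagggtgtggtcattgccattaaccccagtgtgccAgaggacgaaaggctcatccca
Clca3b: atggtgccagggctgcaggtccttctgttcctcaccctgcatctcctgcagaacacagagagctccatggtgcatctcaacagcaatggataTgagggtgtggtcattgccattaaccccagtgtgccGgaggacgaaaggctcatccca

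Of all windows of 100 bases along the transcript, 8.67% in *Clca3a1*, 8.86% in *Clca3a2*, 0.552% in *Clca3b*, 5.96% in *Clca4a* and 5.97% in *Clca4b* stood identically in another member, and none did in *Clca1* or *Clca2*. With the pseudogene added, the share rose to 17.3% in *Clca4a*. The deposited counts carried the same mark: *Clca1* and *Clca2* had whole counts in every library, while *Clca4a* and *Clca4b* had counts with a fraction in 22 of 23 libraries, *Clca3a2* in 19, *Clca3b* in 18 and *Clca3a1* in 15. The values of each close pair are therefore uncertain to the extent that reads were divided between its genes, and the fits were also run with each pair summed.

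The upstream sequences of *Clca3b* and *Clca4b* are shown because their levels ran alike (Pearson r of log2 counts per scaled library total 0.83 over the 23 libraries). Other pairs ran more alike on this measure, such as *Clca3a2* and *Clca3b* at 0.907. The 2 sequences shown were taken from RefSeq (GRCm38.p6, minus strand), and capitals mark matches to TATAAA on either strand:
Clca3b, chr3:144849358-144849552: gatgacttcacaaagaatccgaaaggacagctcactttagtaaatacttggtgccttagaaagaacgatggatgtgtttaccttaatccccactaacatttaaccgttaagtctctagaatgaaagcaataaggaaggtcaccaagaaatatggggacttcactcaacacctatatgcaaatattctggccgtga
Clca4b, chr3:144932530-144932779: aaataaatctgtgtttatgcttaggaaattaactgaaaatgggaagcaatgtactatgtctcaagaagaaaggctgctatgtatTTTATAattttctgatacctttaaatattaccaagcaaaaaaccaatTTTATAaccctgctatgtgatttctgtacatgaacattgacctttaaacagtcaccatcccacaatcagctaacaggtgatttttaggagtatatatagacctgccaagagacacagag
In windows of 250 bases before the RefSeq start the longest run shared by these genes was 8 bases, against 39 bases for *Clca3a2* and *Clca3b*. The RefSeq table held 5 of the 7 members and 32851 promoters in all. The window of *Clca2* lay wholly inside its GENCODE gene, so bases upstream of that gene were not searched. Of the 250 bases of *Clca3b*, 195 lay before its GENCODE gene. TATAAA, searched on both strands, occurred in *Clca4b* and in no other of the 5, and in 12.4% of all promoters. TTTATNG (9.81% of all promoters), CTTTGA (13.8%) and TTCNNNGAA (7.02%) occurred in none of the 5, and AGATAA (9.99%) occurred in *Clca3a2* alone. A form of the NF-κB motif (1.41%) also occurred in *Clca3a2* alone.

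Outside tumors the family was mostly *Clca1*. Levels between genes are compared as CPM per kb of the longest transcript, CPM being counts scaled to a common library total with TMM factors over the 23 libraries. On that scale *Clca1* made up 50.5% to 86.6% of the family sum in the 16 normal and non-tumor libraries and 1.27% to 18.1% in the 7 tumor libraries. The family sum was 520.5 to 1502 CPM per kb at 2 weeks, 743.1 to 2233 in non-tumor colon at 12 weeks, 6.77 to 25.0 in BSHlow tumors and 182.1 to 884.2 in BSHhigh tumors, so the tumor groups did not overlap. In all 7 tumors *Clca3b* and *Clca4b* each stood above *Clca1*, which happened in none of the 16 other libraries.

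**Figure D1:**
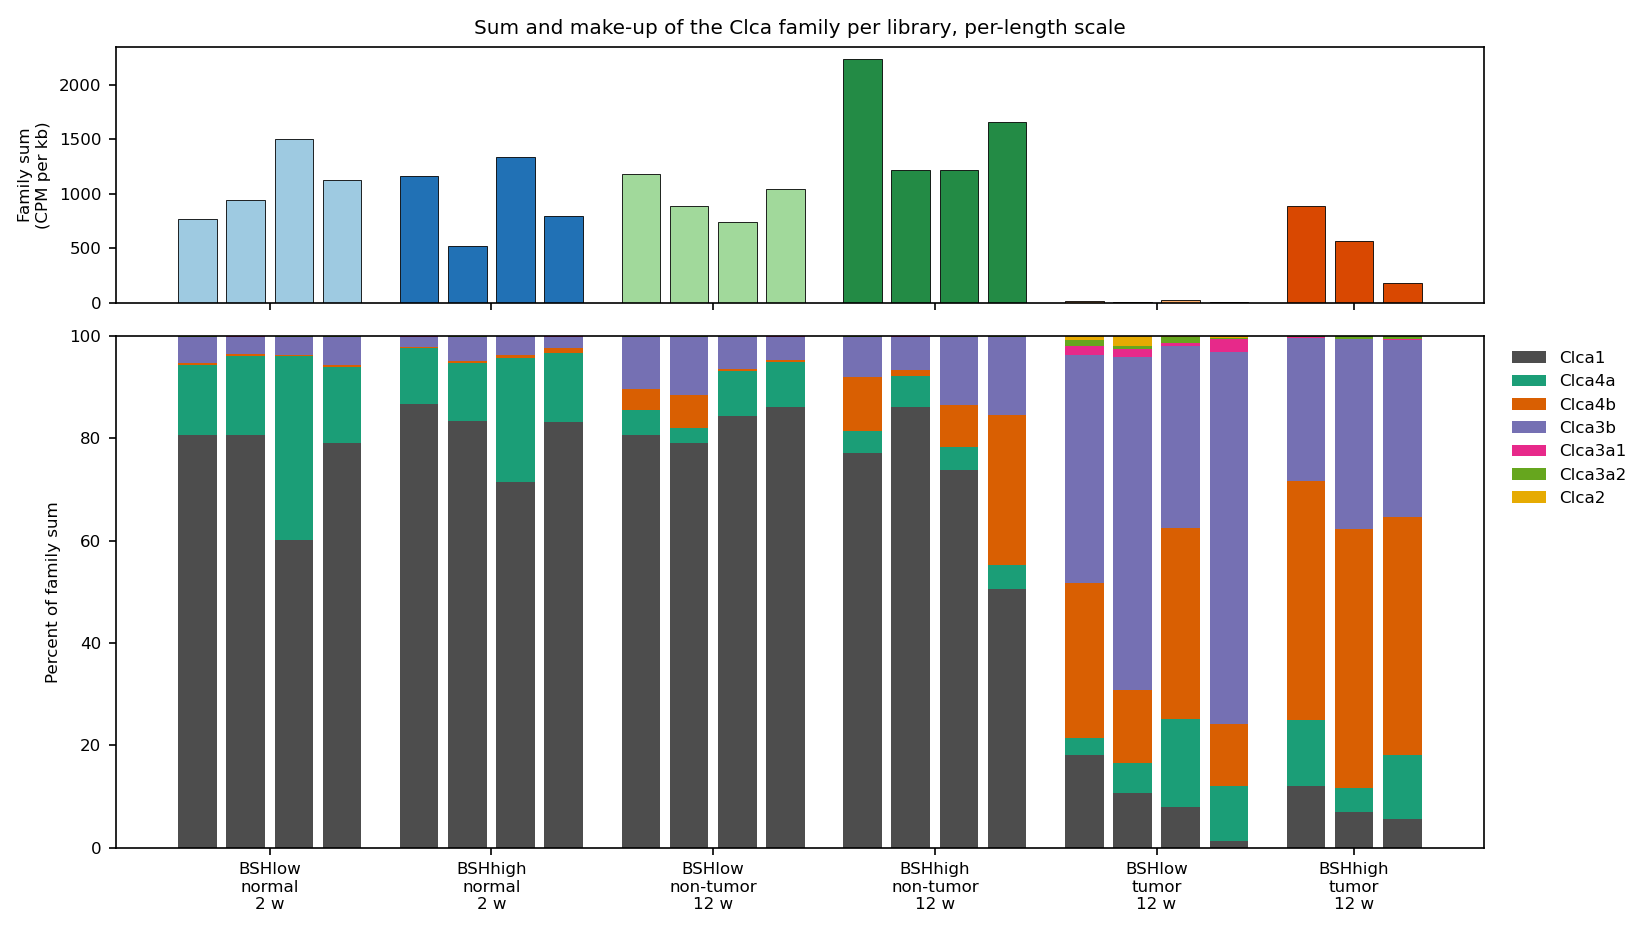
Family sum in CPM per kb of transcript (upper bars, axis from 0) and the percent of that sum contributed by each member (lower stacked bars) for each of the 23 libraries, ordered by group. *Clca1* fills 50.5% or more of each bar outside tumors and at most 18.1% in tumors, where *Clca3b* and *Clca4b* each hold a larger share. In BSHlow tumors these are shares of a family sum of only 6.77 to 25.0 CPM per kb.

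*Clca1*, the goblet cell mucus protein, was the highest member in normal colon. At 2 weeks its CPM was 2252, 2789, 3296 and 3246 in BSHlow and 3685, 1587, 3477 and 2423 in BSHhigh mice. At 12 weeks non-tumor colon held 3471, 2567, 2290 and 3299 CPM in BSHlow and 6299, 3831, 3272 and 3059 CPM in BSHhigh mice. Tumors held 14.2, 2.64, 7.19 and 0.343 CPM in BSHlow mice, and 388.5, 146.8 and 37.2 CPM in BSHhigh mice. The 4 tumor-free groups overlapped one another, all tumors lay below them, and the tumor groups did not overlap.

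*Clca3b*, the member next to the *Clca3a* pair, had its lowest level in BSHlow tumors. Its CPM was 128.8, 106.5, 182.5 and 202.1 in BSHlow and 79.6, 79.8, 159.9 and 60.9 in BSHhigh mice at 2 weeks. Non-tumor colon at 12 weeks held 398.2, 336.7, 155.6 and 160.5 CPM in BSHlow and 592.0, 269.1, 543.0 and 842.0 CPM in BSHhigh mice. Tumors held 32.2, 14.8, 29.9 and 18.1 CPM in BSHlow, and 832.5, 710.7 and 211.3 CPM in BSHhigh mice. In order of group means, BSHhigh tumors (585 ± 329, SD, n = 3) and BSHhigh non-tumor colon (561.5 ± 234.9, SD, n = 4) came first and overlapped, and each next group overlapped its neighbor down to BSHlow tumors (23.7 ± 8.56, SD, n = 4), which lay apart.

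*Clca4a*, the enterocyte member, was highest at 2 weeks. Its CPM was then 315.3, 440.6, 1621 and 499.5 in BSHlow and 384.2, 177.1, 971.8 and 320.8 in BSHhigh mice. Non-tumor colon at 12 weeks held 172.7, 80.3, 195.7 and 273.6 CPM in BSHlow and 285.9, 219.8, 169.1 and 232.8 CPM in BSHhigh mice. Tumors held 2.10, 1.19, 12.9 and 2.40 CPM in BSHlow, and 340.5, 80.4 and 68.2 CPM in BSHhigh mice. BSHhigh tumors overlapped non-tumor colon, and BSHlow tumors lay below every other library.

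*Clca4b*, its closest paralog, was low at 2 weeks and uneven at 12 weeks. Its CPM was 8.19, 9.11, 7.92 and 18.01 in BSHlow and 6.33, 6.46, 25.9 and 23.5 in BSHhigh mice at 2 weeks. Non-tumor colon at 12 weeks held 146.8, 172.8, 9.61 and 15.9 CPM in BSHlow and 698.6, 39.9, 293.2 and 1458 CPM in BSHhigh mice. Tumors held 19.6, 2.90, 28.0 and 2.69 CPM in BSHlow, and 1239, 863.1 and 253.9 CPM in BSHhigh mice. BSHlow tumors overlapped both 2-week groups, and within each 12-week non-tumor group some libraries lay near or inside the 2-week range and others far above it.

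*Clca3a1* and *Clca3a2*, known best from tissues other than colonic epithelium, stayed at a few CPM. *Clca3a1* ranged from 0.363 to 6.61 CPM, with means of 4.02 ± 0.229 (SD, n = 4) in BSHlow normal colon, 4.24 ± 1.74 (SD, n = 4) in BSHhigh non-tumor colon and 0.663 ± 0.391 (SD, n = 4) in BSHlow tumors. *Clca3a2* ranged from 0.0490 to 12.7 CPM, with means of 8.88 ± 3.90 (SD, n = 4) in BSHhigh non-tumor colon, 7.32 ± 4.03 (SD, n = 3) in BSHhigh tumors and 0.547 ± 0.518 (SD, n = 4) in BSHlow tumors. For both genes BSHlow tumors lay below every other library, and the other neighbors in order of level overlapped.

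*Clca2*, the squamous member, was near the limit of detection. Its counts were 0 to 15 per library, with a median of 6, and its highest level was 0.734 CPM. The 1 library at 0, in BSHhigh normal colon, allows up to 0.222 CPM. All 6 groups overlapped, and *Clca2* passed the filter on low counts only in the tumor comparison and in the fit over the 12-week libraries. Of 14 squamous epithelium markers, 7 were at 0 throughout BSHlow normal colon and 5 throughout BSHhigh normal colon, *Krt5* among them. Their summed level was 88.28 to 116.4 CPM in BSHlow and 105.6 to 121.0 CPM in BSHhigh normal colon, against 200.8 to 592.3 CPM in BSHlow tumors and 118.2 to 135.5 CPM in BSHhigh tumors. Most of the sum in normal colon was *Serpinb5*, with means of 101.8 and 110.1 CPM, which fell in tumors by 1.12 (adjusted p = 6.9e-04, edgeR) in BSHlow and by 1.09 (adjusted p = 0.00139) in BSHhigh mice on the log2 scale, while 7 and 6 markers of the list were called higher there. The pseudogene *Clca4c-ps* had at most 0.576 CPM and was listed at 0 in 10 libraries, the 4 BSHlow tumors included.

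**Figure D2:**
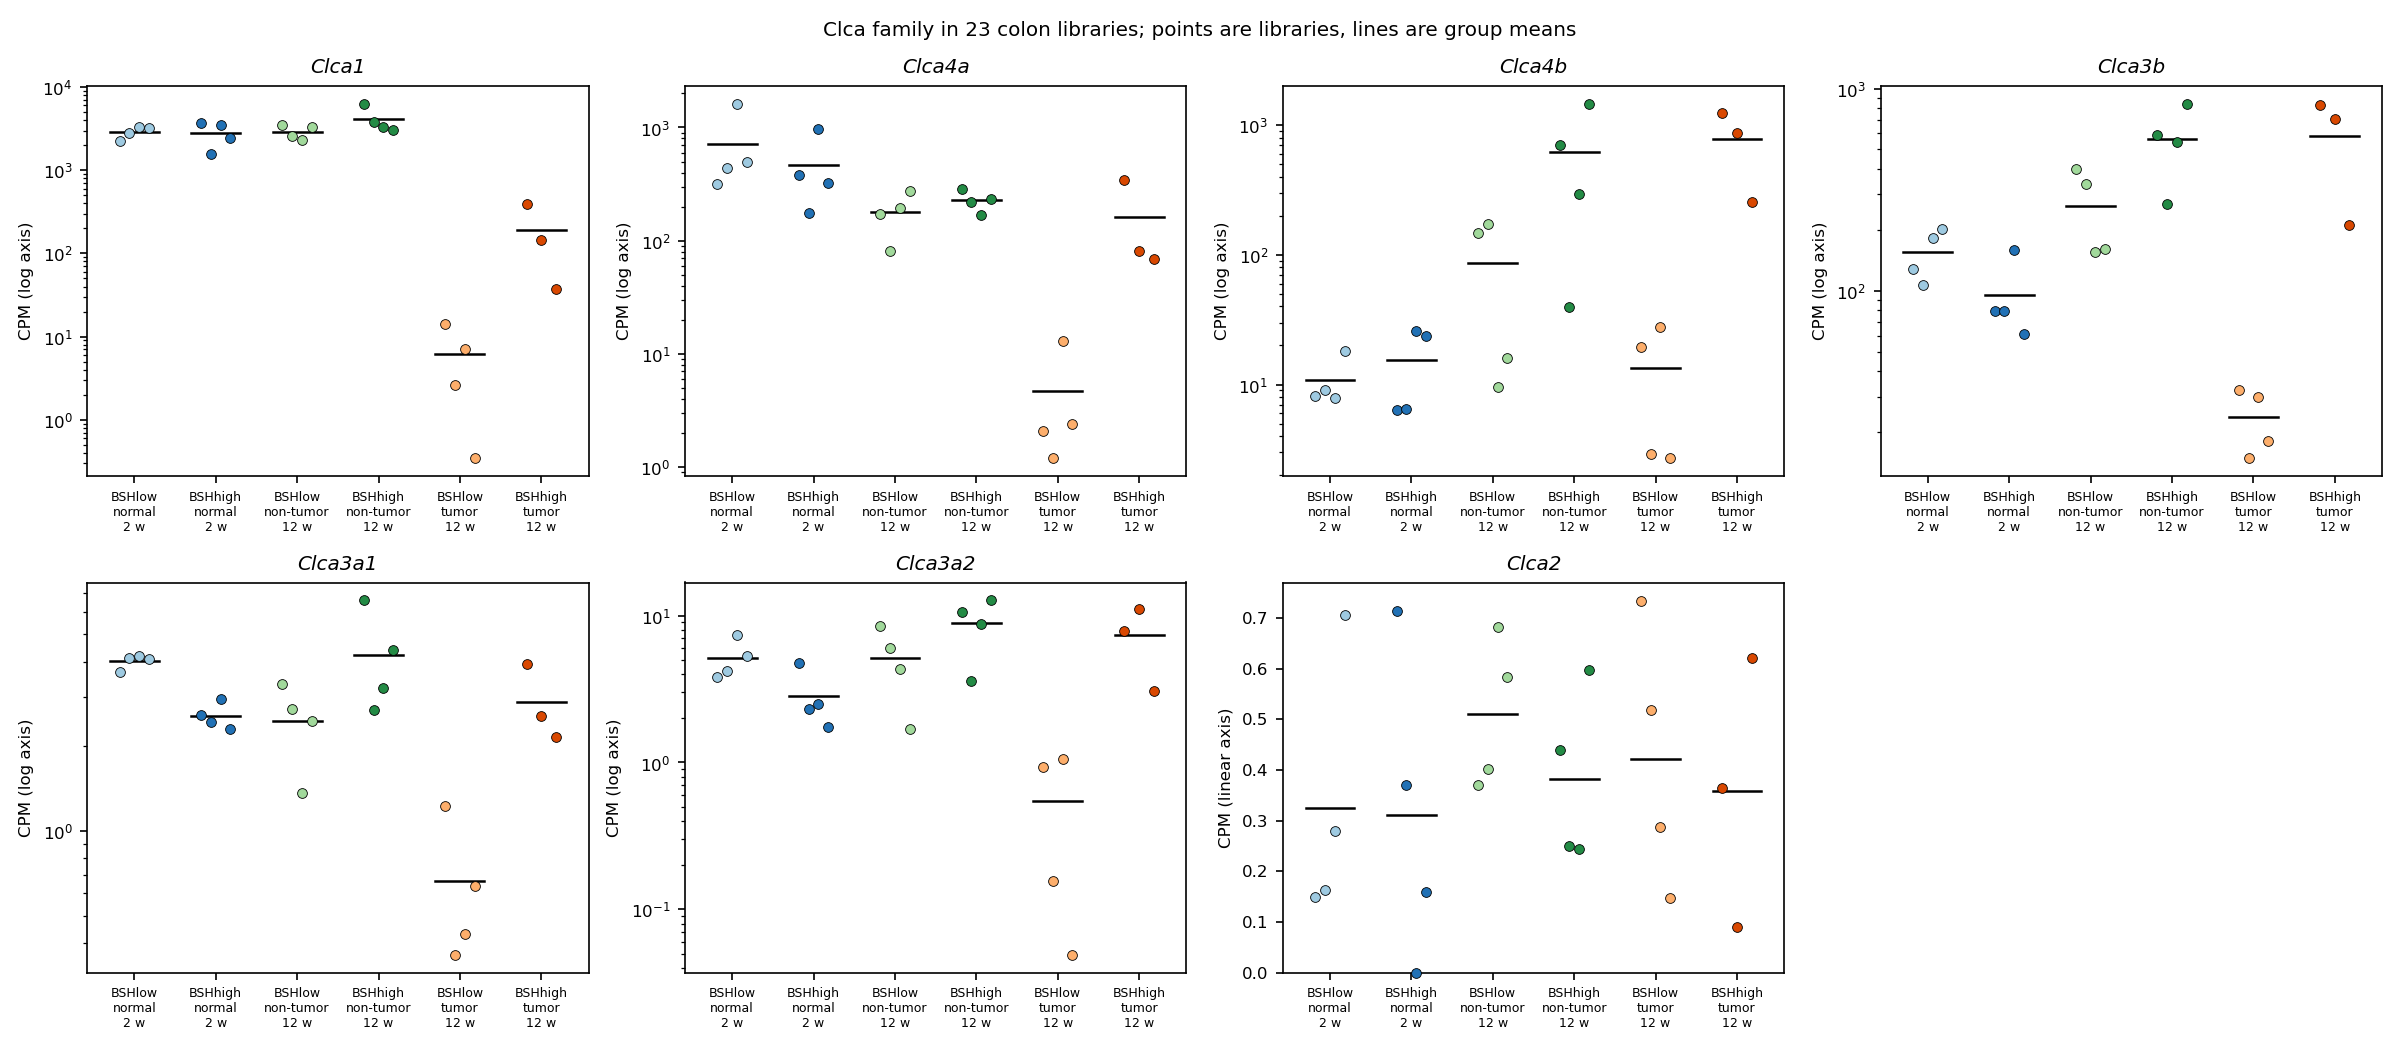
CPM of each of the 7 members in the 6 groups, on a log axis except for *Clca2*, whose axis is linear from 0. Points are libraries and lines are group means. BSHlow tumors sit lowest for *Clca1*, *Clca3b*, *Clca4a*, *Clca3a1* and *Clca3a2*, and *Clca4b* climbs above its 2-week range in most 12-week libraries outside BSHlow tumors.

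The first comparison asked whether bile salt hydrolase of the colonizing strain goes with a different level of the family in tumors. *Clca3b* was the 1 member called, at 24.2-fold higher in BSHhigh than in BSHlow tumors (log2 fold change 4.60, SE 0.51, adjusted p = 0.029, edgeR), where called means an adjusted p under 0.05 and a log2 fold change beyond 1 in size. For comparison, 0.476% of the 15325 genes tested were called, 0.463% higher and 0.0131% lower. The values of 5 more members did not overlap between the groups, all with BSHhigh above BSHlow, and missed the threshold in this fit. Of all genes tested, 7.91% lay without overlap in that direction. Their log2 fold changes were 5.86 (SE 0.98, adjusted p = 0.0535) for *Clca4b*, 5.11 (SE 0.93, adjusted p = 0.0585) for *Clca4a*, 4.93 (SE 1.08, adjusted p = 0.0865) for *Clca1*, 3.70 (SE 0.82, adjusted p = 0.0901) for *Clca3a2* and 2.08 (SE 0.48, adjusted p = 0.0996) for *Clca3a1*. *Clca2* stood at -0.25 (SE 0.74, adjusted p = 0.917). With the close pairs summed, neither pair was called by edgeR. *Clca4a* with *Clca4b* had 5.70 (SE 0.94, adjusted p = 0.0505), and *Clca3a1* with *Clca3a2* had 3.04 (SE 0.54, adjusted p = 0.0561). The median over the 7 members was 4.60, beside -0.03 over all genes tested.

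How many members passed in tumors depended on the test. DESeq2 called 6 members, where 3.48% of genes were called and 3.19% called higher, and a fit of all 23 libraries also called 6, where 3.45% of genes were called and 3.38% called higher. Both fits called *Clca1*, *Clca3a1*, *Clca3a2*, *Clca3b*, *Clca4a* and *Clca4b*. Without a filter on low counts edgeR called 5, all of these but *Clca3a1*, where 1.27% of genes were called and 1.22% called higher. The fold change of *Clca4b* was 5.87 with DESeq2 and 5.88 in both other fits. Leaving out any library but BSHhigh tumor c ended the call of *Clca3b* (adjusted p up to 0.104, log2 fold change at least 4.25). Without BSHhigh tumor c, *Clca3b*, *Clca4a* and *Clca4b* were called, where 1.53% of genes were called and 1.49% called higher. Single libraries also moved the log2 fold changes of members not called. *Clca1* stood at 5.81 without BSHlow tumor replicate 1 and at 3.88 without BSHhigh tumor a. *Clca4a* stood at 6.39 without BSHlow tumor replicate 3 and at 3.98 without BSHhigh tumor a, and *Clca4b* at 6.50 without BSHlow tumor replicate 3.

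Some markers of goblet cells, the known source of *Clca1*, and of surface colonocytes, which are known to express *Clca4a*, also differed between the tumor groups. The summed level of 15 goblet cell markers was 210.9 to 340.2 CPM in BSHlow and 890.5 to 4972 CPM in BSHhigh tumors, of which 3 were called higher, at a median log2 difference of 2.67. The summed level of 14 surface colonocyte markers was 137.7 to 314.3 CPM in BSHlow and 362.8 to 1686 CPM in BSHhigh tumors, with 4 of 11 tested called higher and a median of 5.42. No marker of either list was at 0 throughout a group. Their part in the result was not tested. In such bulk samples fewer cells of a type and less RNA per cell cannot be told apart. The summed level of 10 epithelium markers was 5216 to 9499 and 7176 to 10620 CPM in the same groups, with 0 of 10 called.

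Tumor against non-tumor colon asked what happened to the family within each colonization. In BSHlow mice 5 of 6 members tested were called lower, beside 17.6% of 15179 genes called lower, 16.1% higher and 33.7% in either direction. *Clca1* fell most, 479.7-fold (log2 fold change -8.91, SE 0.98, adjusted p = 6.7e-05, edgeR), followed by *Clca4a* at -5.30 (SE 0.78, adjusted p = 0.00036). *Clca3b* fell by 3.48 on the log2 scale (SE 0.40, adjusted p = 9.1e-05), *Clca3a2* by 3.21 (SE 0.80, adjusted p = 0.00694) and *Clca3a1* by 1.89 (SE 0.47, adjusted p = 0.00643). All 5 had no overlap between tumor and non-tumor libraries, as was so for 27.7% of all genes tested, in the same direction. Without BSHlow tumor replicate 1 *Clca1* stood at -9.77, and without BSHlow tumor replicate 3 *Clca4a* stood at -6.59, both still called. Both close pairs were called lower when summed, *Clca4a* with *Clca4b* at -3.92 (SE 0.70, adjusted p = 0.00113) and *Clca3a1* with *Clca3a2* at -2.64 (SE 0.51, adjusted p = 0.00182). *Clca4b* by itself overlapped and stood at -2.70 (SE 1.08, adjusted p = 0.0548). DESeq2, the fit of all 23 libraries and the fit without a filter called *Clca4b* lower too, at adjusted p of 0.0258, 0.0231 and 0.0461, as did edgeR without BSHlow non-tumor replicate 3 or 4 or BSHlow tumor replicate 3, and leaving out 1 library at a time moved its adjusted p between 0.0297 and 0.132.

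In BSHhigh mice *Clca1* alone was called, at 21.7-fold lower in tumors (log2 fold change -4.44, SE 0.78, adjusted p = 0.00158, edgeR), beside 15% of 15654 genes called lower, 14.6% higher and 29.6% in either direction. Its groups did not overlap, as was so for 29.3% of genes in that direction, and without BSHhigh tumor a, the highest of the 3 tumors, it stood at -5.48. The other 5 members tested overlapped between tumor and non-tumor colon. Their log2 fold changes ran from -0.57 for *Clca3a1* (SE 0.36, adjusted p = 0.211) to 0.33 for *Clca4b* (SE 0.96, adjusted p = 0.788), with *Clca3b* at 0.05 (SE 0.49, adjusted p = 0.94). Without BSHhigh tumor a, *Clca4a* was also called lower, at -1.61 (adjusted p = 0.00049). Goblet cell markers were called lower in tumors in 14 of 14 cases tested in BSHlow and 14 of 15 in BSHhigh mice, with summed levels of 12450 to 17450 and 16600 to 32170 CPM in the non-tumor groups. Surface colonocyte markers were called lower in 12 of 13 and 9 of 13 cases. The part of these cells in the fall of the members was not tested.

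The interaction of colonization and tissue over the 15 libraries of 12 weeks tested whether the BSHhigh effect differed between tumor and non-tumor colon. *Clca3b* (log2 difference of effects 3.52, SE 0.67, adjusted p = 0.0227, edgeR) and *Clca4a* (4.81, SE 0.97, adjusted p = 0.0279) were called, beside 0.978% of 16455 genes called, 0.972% higher and 0.00608% lower. The other members had 4.46 (adjusted p = 0.0733) for *Clca1*, 3.02 (adjusted p = 0.592) for *Clca4b*, 2.92 (adjusted p = 0.262) for *Clca3a2*, 1.32 (adjusted p = 0.505) for *Clca3a1* and 0.19 (adjusted p = 0.986) for *Clca2*. *Clca4b*, which had the largest fold change of the family in tumors, was thus not shown to differ between the tissues. *Clca1* was called as well by DESeq2 (adjusted p = 0.00176), where 2.35% of genes were called and 2.3% called higher, by the fit of all 23 libraries (0.0121), where these shares were 1.57% and 1.55%, and without a filter (0.0432), where they were 0.712% and 0.709%. *Clca4a* kept its call without BSHlow non-tumor replicate 2, BSHlow tumor replicate 3 or BSHhigh tumor b or c, and lost it without any of the other 11 libraries (adjusted p up to 0.086). Its log2 difference was 6.08 without BSHlow tumor replicate 3 and 3.68 without BSHhigh tumor a. *Clca3b* lost its call without BSHhigh non-tumor replicate 1 or 3, BSHlow tumor replicate 4 or BSHhigh tumor a or b (adjusted p up to 0.0722). Without BSHhigh tumor c, *Clca1*, *Clca3b* and *Clca4a* were called, where 1.99% of genes were called, nearly all of them higher. With *Clca4a* and *Clca4b* summed, the pair had 4.06 (SE 1.04, adjusted p = 0.0923).

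Outside tumors no member was called between the colonizations. In non-tumor colon at 12 weeks edgeR called 0 of 14934 genes (0%), and 213 genes had an unadjusted p under 0.05 with a log2 fold change beyond 1 in size. DESeq2 called 0 members there, where it called 53 genes, and 0 members at 2 weeks, where it called 29 genes. The 2 members with an unadjusted p under 0.05 were *Clca3b* (log2 fold change 1.08, SE 0.40, adjusted p = 0.486) and *Clca4b* (2.84, SE 1.17, adjusted p = 0.518). The log2 fold changes of the 6 members tested lay between 0.32 and 2.84, and each member overlapped between the groups. At 2 weeks 0.00727% of 13753 genes were called. *Clca3a1* did not overlap there, with 3.68 to 4.20 CPM in BSHlow and 2.30 to 2.95 CPM in BSHhigh mice, at a log2 fold change of -0.65 (SE 0.20, adjusted p = 0.651), where 1.4% of genes lay without overlap in that direction. *Clca3a1*, *Clca3a2* and *Clca3b* had an unadjusted p under 0.05 there (edgeR), each with a log2 fold change under 1 in size. Over all genes 177 had such a p with a log2 fold change beyond 1 in size. How many had such a p whatever their fold change was not counted. The 5 members other than *Clca3a1* lay between -0.88 for *Clca3a2* and 0.52 for *Clca4b*, all overlapping.

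**Figure D3:**
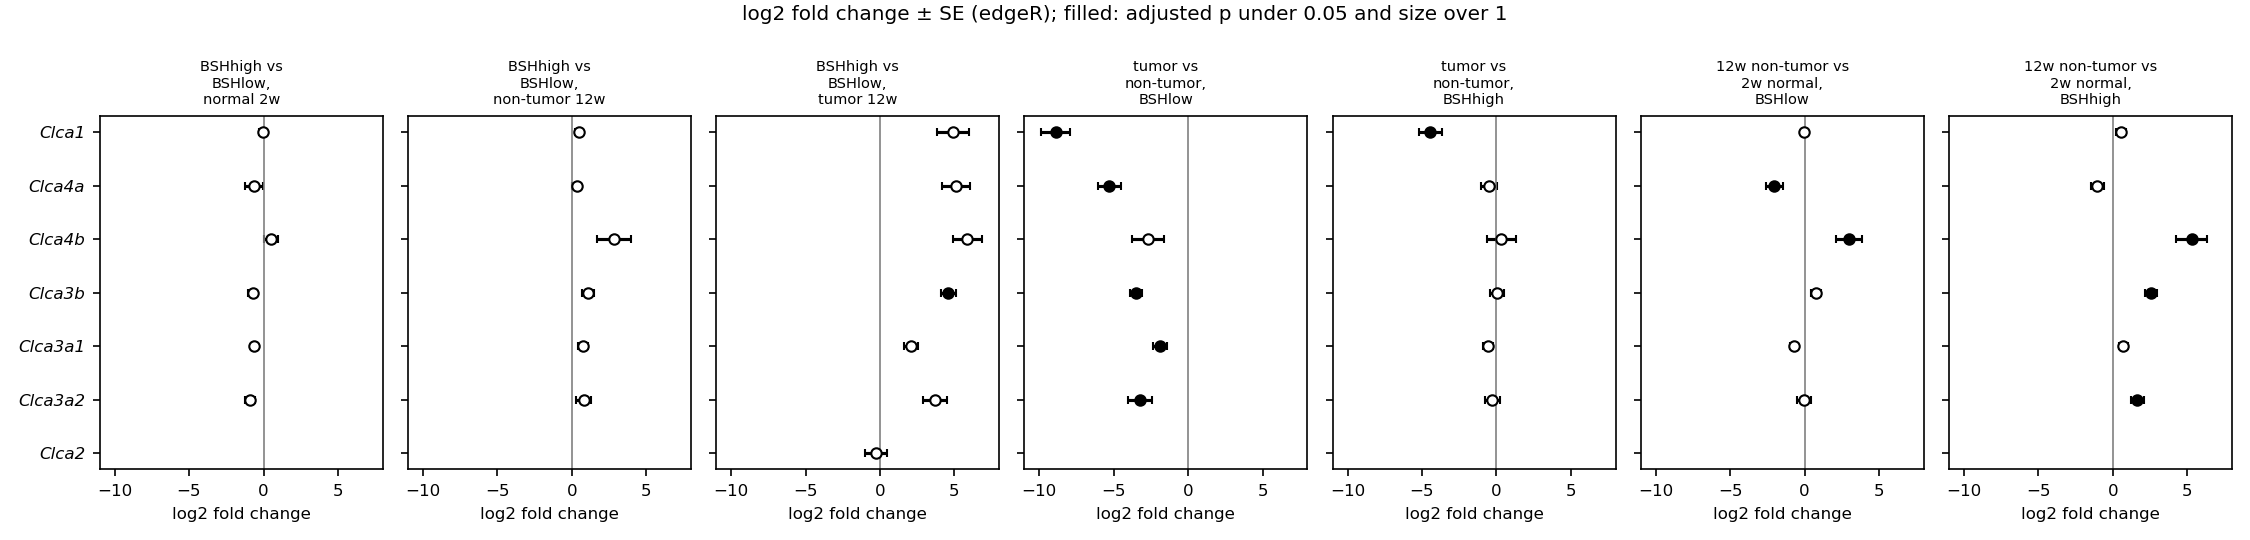
log2 fold change ± SE (edgeR) of each member tested in 7 comparisons, with called members as filled points and the zero line in grey. In tumors 6 members lie between 2.08 and 5.86 for BSHhigh against BSHlow, and in BSHlow mice all 6 members tested lie below zero for tumor against non-tumor colon.

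Between 2-week normal and 12-week non-tumor colon of BSHlow mice *Clca4a* and *Clca4b* went opposite ways. There *Clca4a* fell 4.08-fold (log2 fold change -2.03, SE 0.55, adjusted p = 0.0142, edgeR) and *Clca4b* rose 7.83-fold (2.97, SE 0.87, adjusted p = 0.0212), beside 7.59% of 14555 genes called lower, 15.1% higher and 22.7% in either direction. In BSHhigh mice *Clca4b* rose 39.7-fold (5.31, SE 1.04, adjusted p = 0.00234), *Clca3b* 5.90-fold (2.56, SE 0.39, adjusted p = 6e-04) and *Clca3a2* 3.14-fold (1.65, SE 0.43, adjusted p = 0.0099), beside 15.9% of 14638 genes called higher, 7.34% lower and 23.3% in either direction. *Clca4a* was at -1.04 there (SE 0.44, adjusted p = 0.0775), and was called lower without BSHhigh normal replicate 2 (-1.32, adjusted p = 0.0177). *Clca1* stood at -0.02 (SE 0.19, adjusted p = 0.928) in BSHlow and 0.55 (SE 0.31, adjusted p = 0.163) in BSHhigh mice. Whether the time effect differed between the colonizations was not tested. Without BSHlow normal replicate 3, at 1621 CPM the highest library, *Clca4a* stood at -1.25 in BSHlow mice (adjusted p = 0.0212). Without BSHhigh non-tumor replicate 4, at 1458 CPM, *Clca4b* stood at 4.44 in BSHhigh mice and was still called. In BSHlow mice the call of *Clca4b* held without normal replicate 4 or non-tumor replicate 3 or 4 and was lost without any of the other 5 libraries (adjusted p 0.00643 to 0.0594), with its lowest value, 2.38, without non-tumor replicate 2.

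Per kb of transcript *Clca4a* made up 93.2% to 99.5% of the *Clca4a* and *Clca4b* sum in the 8 libraries of 2 weeks. In 12-week non-tumor colon its share ran from 31.7% to 95.3% in BSHlow and from 13.7% to 84.6% in BSHhigh mice, and in tumors from 8.50% to 47.1%. *Clca4b* stood above *Clca4a* in 0 of 8 libraries at 2 weeks, 1 of 4 and 3 of 4 non-tumor libraries at 12 weeks, and all 7 tumors. Summed, the pair was called lower at 12 weeks in BSHlow mice (log2 fold change -1.48, SE 0.46, adjusted p = 0.0272) and was not called in BSHhigh mice (0.82, SE 0.63, adjusted p = 0.304).

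**Figure D4:**
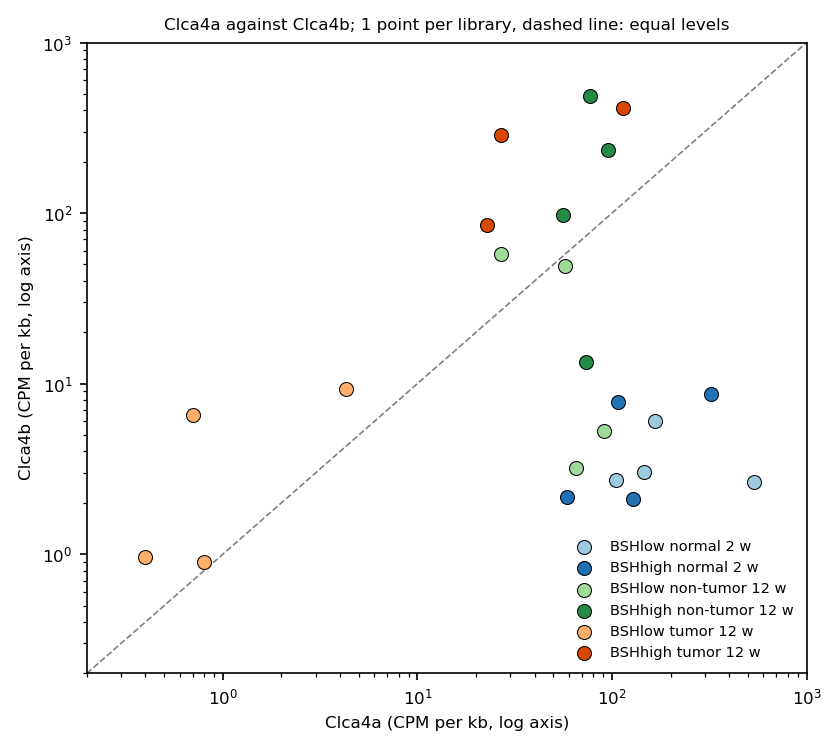
*Clca4b* against *Clca4a* in CPM per kb, both axes logarithmic, 1 point per library, with equal levels on the dashed line. All 8 libraries of 2 weeks lie below the line and all 7 tumors above it, while non-tumor libraries of 12 weeks lie on both sides.

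The 12-week and 2-week libraries also differed in their tissue. Smooth muscle markers summed to 15.3 to 231.9 CPM in the 2-week groups and 1657 to 9088 CPM in the 12-week non-tumor groups, with 10 of 10 called higher in both colonizations. Fibroblast markers were called higher in 10 of 10 cases in both. Surface colonocyte markers summed to 19800 to 33480 CPM at 2 weeks and 4285 to 11340 CPM in 12-week non-tumor colon, with 8 of 14 called lower and 0 higher in both. The largest part of that sum at 2 weeks was *Car1*, with means of 14330 CPM in BSHlow and 10020 CPM in BSHhigh mice. Its means in 12-week non-tumor colon were 405.2 and 148.6 CPM. Not every marker fell, as 6 of 14 had a positive log2 fold change in BSHlow and 1 of 14 in BSHhigh mice. The part of these differences in the change of the members was not tested, and time, age and the tissue taken cannot be told apart.

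A list of 20 genes of chloride and bicarbonate secretion was followed beside the family, among them the channels on which CLCA proteins act or which work in the same cells. In BSHlow tumors 2 of 18 tested were called higher and 8 lower against non-tumor colon, and in BSHhigh tumors 3 of 19 higher and 7 lower, beside 16.1% of all genes higher and 17.6% lower in the first and 14.6% and 15% in the second. *Ano1*, encoding the channel TMEM16A, had 246.7 to 318.0 CPM in BSHlow and 198.1 to 314.5 CPM in BSHhigh non-tumor colon, against 65.7 to 127.2 and 81.0 to 114.0 CPM in tumors. It fell in tumors by 1.63 (SE 0.20, adjusted p = 0.00013) and by 1.32 (SE 0.19, adjusted p = 0.00067) on the log2 scale. Smooth muscle markers were also called lower in tumors, 10 of 10 in both colonizations. Their part in the fall of *Ano1* was not tested. Between BSHhigh and BSHlow tumors *Ano1* stood at 0.11 (SE 0.23, adjusted p = 0.877), beside 4.60 for *Clca3b*.

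*Slc26a3*, the chloride and bicarbonate exchanger of the colonic surface, was the 1 gene of the list called between tumor groups. It had 0 to 0.489 CPM in BSHlow and 3.44 to 39.4 CPM in BSHhigh tumors (log2 fold change 6.25, SE 0.98, adjusted p = 0.0481, edgeR). *Best2*, a goblet cell bicarbonate channel, had 0.192 to 0.489 and 1.58 to 14.96 CPM, without overlap (4.27, SE 0.78, adjusted p = 0.0585). Both were called in the interaction, *Slc26a3* at 6.82 (SE 0.93, adjusted p = 0.00595) and *Best2* at 4.11 (SE 0.78, adjusted p = 0.0227). *Cftr*, the cAMP-activated chloride channel, fell in BSHlow tumors by 3.17 (SE 0.35, adjusted p = 6.5e-05) and in BSHhigh tumors by 2.31 (SE 0.26, adjusted p = 0.00019) on the log2 scale. *Slc26a9*, a chloride channel of stomach and airway, rose by 4.72 (SE 0.95, adjusted p = 0.00226) and 6.79 (SE 0.43, adjusted p = 2.2e-05). The basolateral parts of secretion, the cotransporter *Slc12a2* and the potassium channel genes *Kcnn4*, *Kcnq1* and *Kcne3*, were called in none of the 8 comparisons. *Clcn2*, *Ano7* and *Slc4a4* fell in both tumor groups, *Ano9* in BSHlow tumors, and *Ttyh3* rose in both. *Best1* rose in BSHhigh tumors and was not tested against non-tumor colon in BSHlow mice. There its mean was 0.346 CPM in non-tumor colon and 2.93 CPM in tumors. Between BSHhigh and BSHlow tumors it stood at -0.86 (SE 0.79, adjusted p = 0.704, edgeR). *Ano6*, *Ano10*, *Ttyh2* and *Slc26a6* were called in neither tumor group against non-tumor colon. *Best3* stood at 0 to 0.0897 CPM and was not tested.

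From 2 to 12 weeks *Ano1* rose by 3.34 (SE 0.22, adjusted p = 1.1e-05) in BSHlow and 2.58 (SE 0.55, adjusted p = 0.0037) in BSHhigh mice, and *Best2* by 3.57 (SE 0.26, adjusted p = 1.6e-05) and 3.47 (SE 0.31, adjusted p = 4.4e-05), on the log2 scale. *Ano1* is also a gene of the pacemaker cells of gut muscle. The smooth muscle markers above were higher at 12 weeks as well, and their part in the rise of *Ano1* was not tested. In both colonizations 3 of 17 genes tested were called higher, with 3 called lower in BSHlow and 4 in BSHhigh mice, beside 15.1% of all genes called higher and 7.59% lower in BSHlow, and 15.9% and 7.34% in BSHhigh mice.

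**Figure D5:**
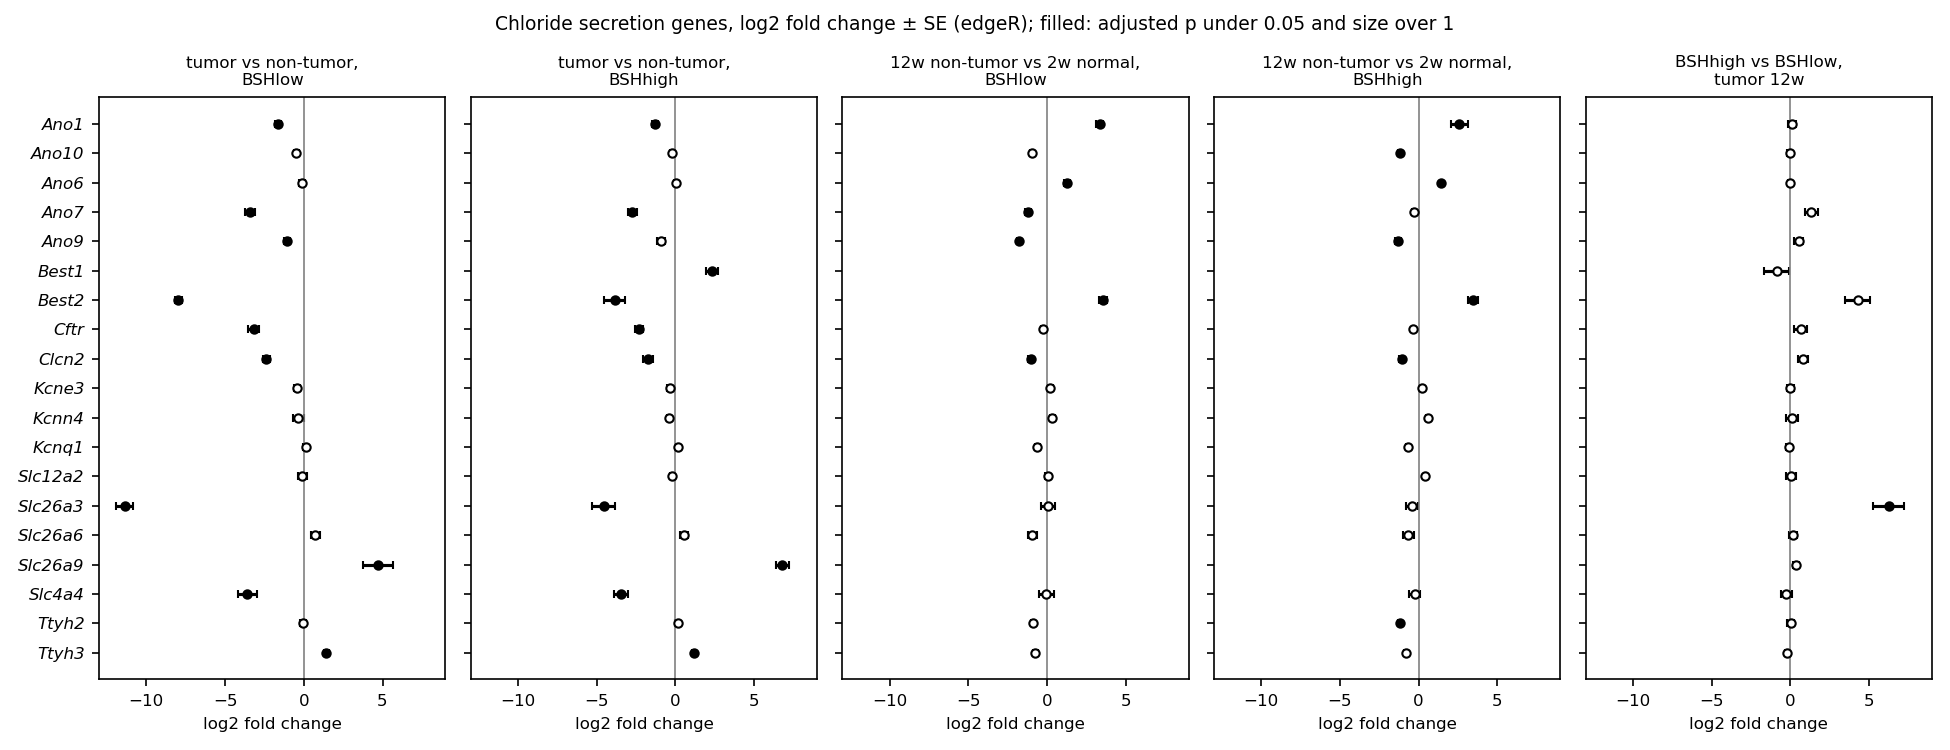
log2 fold change ± SE (edgeR) of the chloride secretion genes tested in 5 comparisons, with called genes as filled points. *Slc26a3* and *Best2* lie far below zero in both tumor comparisons, at -11.36 and -7.97 in BSHlow mice, and the potassium channel genes lie near zero throughout.

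The genes whose log2 CPM most resembled each member over the 23 libraries are given as a description, among 14394 genes with a mean of at least 1 CPM. The points share libraries and tissue, and the tumor split weighs on every value. *Clca1* was closest to *Adgrg7* (Pearson r 0.992), *Ceacam20* (0.987) and *Nlrp1b* (0.987), and without tumors, over 16 libraries, the first was at 0.345. *Clca4a* was closest to *Krt20* (0.947), a keratin of the surface epithelium, *Ptprh* (0.938) and *Ces2e* (0.934). *Clca3b* was closest to *Duox2* (0.927, and 0.896 without tumors), the epithelial hydrogen peroxide-forming oxidase, *Ighv1-53* (0.871) and *Tifa* (0.861). *Clca4b* was closest to *Ret* (0.907), *Zc3h12a* (0.881, and 0.935 without tumors) and *Duoxa2* (0.879), the maturation factor of that oxidase. *Clca3a1* was closest to *Ptk6* (0.911), *Trim40* (0.905) and *Aqp4* (0.904), and *Clca3a2* to *Igha* (0.887), *Igkc* (0.881) and *Jchain* (0.879). Immunoglobulin genes share reads with one another and are uncertain.

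Within the family *Clca3b* and *Clca3a2* had a Pearson r of 0.907, and *Clca3b* and *Clca4b* 0.83, over the 23 libraries. Without tumors, over 16 libraries, these were 0.802 and 0.897. *Clca4a* and *Clca4b* had 0.217, and -0.419 without tumors. *Clca1* and *Clca4a* had 0.897, which was 0.237 without tumors.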

How the data were processed

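RNA from colon was sequenced in 23 libraries (6 groups). Reads were trimmed with Cutadapt, aligned to mm10 with STAR, checked with Picard and quantified with RSEM, per the labels and the study's methods, with versions not given in the sources used here; the authors deposited 1 table of RSEM expected counts per gene, not normalized. In RSEM a read that matches several genes is divided between them, which touches the close Clca pairs. The header repeats the names of 3 BSHlow tumors over 3 columns that hold the BSHhigh tumors; they were placed by group because 1996 of 1996 rows at hand in a supplementary table matched within 0.1. Columns of other samples left unused numbered 0. 1 gene with text in a cell was left out. The authors' own comparisons were not used.

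Expected counts were rounded and tested with edgeR 4.0.16 (quasi-likelihood, TMM, filterByExpr, R 4.3.3) on the groups compared, with Benjamini-Hochberg adjustment over all genes tested. A gene was called at an adjusted p under 0.05 with a log2 fold change beyond 1 in either direction. The interaction was fitted over the 15 libraries of 12 weeks. Standard errors are the log2 fold change divided by the root of the F statistic. Log2 CPM used a prior count of 2, and CPM per kb used the longest GENCODE M21 transcript. Floors (3 counts) cover counting error only. Between replicates of a group no pair was alike within sampling noise (chi-square per degree of freedom at least 16.6 over 33 pairs). Scripts were tested on simulated data with 200 changed genes.

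All 7 members are named, with the whole chloride secretion list, up to 4 called genes of each other list and, per member with a mean of at least 1 CPM, the 3 genes with the highest Pearson r. The members and lists were chosen with earlier results of these data known. Alternatives were DESeq2 1.42.0, RLE scaling, no filter, CPM over 1 in 3 libraries, all 23 libraries in 1 fit, summed paralog pairs, a replicate block and each library left out. Correlations without tumors were added after seeing the data.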

Additional observations from a re-analysis of the deposited data

Results flagged for a closer look

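*Clca4a* in BSHlow normal colon had 1 library, replicate 3, at 1621 CPM, far from the other 3 (315.3 to 499.5 CPM). In BSHlow tumors replicate 3 stood at 12.94 CPM, far from the other 3 (1.19 to 2.40 CPM). *Clca4b* in BSHlow normal colon had replicate 4 at 18.01 CPM, above the other 3 (7.92 to 9.11 CPM). These were 3 of 35 sets of 4 libraries examined by a gap test (Dixon), which flags about 1 in 20 by chance.

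A difference in the effect of BSHhigh colonization between tumor and non-tumor colon was called by edgeR's test of the interaction over 15 libraries for 2 members. These were *Clca3b* (log2 difference 3.52, adjusted p = 0.0227) and *Clca4a* (4.81, adjusted p = 0.0279), beside 0.978% of genes called. With each of the 15 libraries left out in turn, the call was lost 5 times for *Clca3b* and 11 times for *Clca4a*. Summed with *Clca4b*, *Clca4a* was not called (4.06, adjusted p = 0.0923).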

How the results depend on the processing

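Of 710 member fold changes under other settings, 633 kept direction and side of the threshold, 28 lost the call, 29 gained it and 20 changed sign, the last all from leaving out a library and none of a called value. In tumors BSHhigh against BSHlow had 1 member called, beside 0.476% of all genes tested. DESeq2 called 6 members (3.48% of genes), edgeR without a filter 5 (1.27%) and the fit of all 23 libraries 6 (3.45%). With 1 library left out, 0 to 3 members were called. Leaving out a library gave 1 to 2 for tumor against non-tumor colon in BSHhigh mice, 1 to 2 (2 as reported) for 12 against 2 weeks in BSHlow mice, and 0 to 3 (2 as reported) for the interaction. Summed paralog pairs gave 1 for each of the latter. The cause was not tested.

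Log2 fold changes that changed sign ran, over the libraries left out, from -0.92 to 0.22 for *Clca2* in tumors and -0.46 to 0.67 in the interaction, and at 2 weeks from -0.23 to 0.14 for *Clca1* and -1.3 to 0.14 for *Clca4a*. In tumor against non-tumor colon of BSHhigh mice they ran from -0.71 to 0.09 for *Clca3a2*, -0.29 to 0.45 for *Clca3b* and -0.16 to 1.18 for *Clca4b*. From 2 to 12 weeks in BSHlow mice they ran from -0.14 to 0.08 for *Clca1* and -0.4 to 0.25 for *Clca3a2*.

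Deviations of same-numbered libraries were only weakly correlated (-0.23 to 0.33). For tumor against non-tumor colon of BSHlow mice the correlations were -0.11 to 0.18, with 2 of 4 libraries closest to their own number. With 4 pairs this cannot show whether same-numbered libraries came from 1 mouse, and the fits reported used no block. With the replicate block 1 member instead of 2 was called from 2 to 12 weeks in BSHlow mice (*Clca4b* at 2.16, adjusted p = 0.125, edgeR), and the other 4 counts of calls stayed the same. Of the libraries, 0 to 2 per comparison correlated best with their own number. The values of *Clca2* rest on 0 to 15 counts per library.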
